A study of Mus musculus with 6 samples.

Results

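The 3 genotypes of CD8+ T cells were read as one ordered series, from wild-type (WT) over cells with human STAT5B (hSTAT5B) to cells with the mutant hSTAT5BN642H, and each gene region was asked whether its DNA methylation moved step by step along that series. A gene region was a protein-coding gene of an autosome with 10 kb on either side, on the mouse build mm10 (GRCm38). Its level was the mean methylation of its CpGs, each CpG counting once, and a CpG was used only with at least 10 reads in all 6 libraries. Of 20807 such genes, 15670 had at least 10 usable CpGs (median 32) and were kept. Because neighbouring regions overlap, they formed 7514 distinct loci. A region was called falling when both WT libraries lay above both hSTAT5B libraries and these above both hSTAT5BN642H libraries, and rising when the 3 pairs followed the opposite order. By that rule 376 regions fell and 258 rose.

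The libraries were made by reduced representation bisulfite sequencing (RRBS), which cuts genomic DNA with MspI and reads methylation mostly in CpG-rich stretches. CD8+ T cells were enriched with magnetic beads from lymph nodes of C57BL/6N mice, with 2 libraries for each of the genotypes wt, hSTAT5B +/T and hSTAT5B N642H +/T. Both transgenes were human cDNAs under the Vav1 promoter, which is active throughout the blood lineages, so that cells other than CD8+ T cells carried them too. Each transgene was studied in 1 selected line, the hSTAT5BN642H mice were diseased, and all 3 genotypes keep their own mouse STAT5 genes. The mice were 13 weeks old by the study's own account, and the labels do not say whether the 2 replicates of a genotype came from separate mice, so p-values measure the spread between these samples. The labels and methods leave disease and genotype together in the third pair, and in bulk DNA a change in the mix of cells and a change within cells cannot be told apart.

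STAT5B is a transcription factor that JAK kinases activate downstream of the receptors for interleukin 2, 7 and 15, and it drives the growth and survival of T cells. N642H lies in its SH2 domain and prolongs the active, tyrosine-phosphorylated state. Methylation of CpGs is usually low at active promoters and enhancers and high across gene bodies and between genes, and in T cells it is lost at regulatory elements as cells activate and differentiate.

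The 6 libraries held 2597893 to 3445555 CpGs and 43291086 to 67007186 reads, and 725519 CpGs passed the read limit in all of them. The median depth of those CpGs was between 24 reads (WT replicate 1) and 45 reads (hSTAT5BN642H replicate 1). WT replicate 1 stood apart at Cd8a, which encodes a chain of the CD8 coreceptor: over 10 CpGs its level was 57.6%, against 22.2% in WT replicate 2, 20.6% and 29.8% in hSTAT5B and 21.8% and 15.6% in hSTAT5BN642H. Over the 8 T cell markers the mean level was 65.1% and 63.8% in WT, 64.5% and 62.8% in hSTAT5B and 59.8% and 60.3% in hSTAT5BN642H. The other marker sets differed less between genotypes. The mean over 5 measured of 8 B cell markers was 44.2% and 46.3% in WT, 44.7% and 47.3% in hSTAT5B and 47.3% and 47.4% in hSTAT5BN642H. Over all libraries, the mean over 6 of 8 myeloid markers ran from 65.0% to 67.1% and that over 2 of 5 CD4 markers from 34.0% to 35.2%. Nfil3, the 1 measured of 5 natural killer markers, ran from 26.9% to 28.4%. The part of cell mix in the results that follow was not tested.

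Ordered CpGs sat, for example, in the following 4 stretches of 300 bases. They were read from the plus strand of the RefSeq GRCm38 genome, and the capitals CG mark the CpGs in full order. Of these, 2 belong to regions with some of the widest gaps between genotypes (Plxdc1, Creg1) and 2 to ordered genes of T cell biology (Il2rb, Thy1). None of the 4 overlaps an exon of a protein-coding gene. Stretches that overlap an annotated untranslated region, such as those of Ttyh3 and Gnb2, were left out beforehand. Those of Cd2 and Plcd3 are not shown either, so the 4 are a selection. The lack of exons is thus in part set by these choices.

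Plxdc1, chr11:97954397-97954696: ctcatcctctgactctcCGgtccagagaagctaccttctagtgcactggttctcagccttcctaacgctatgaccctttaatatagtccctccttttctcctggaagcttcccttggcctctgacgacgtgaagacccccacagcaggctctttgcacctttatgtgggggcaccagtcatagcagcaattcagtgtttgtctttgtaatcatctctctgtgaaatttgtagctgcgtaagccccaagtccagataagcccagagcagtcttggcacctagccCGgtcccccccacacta

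Il2rb, chr15:78503073-78503372: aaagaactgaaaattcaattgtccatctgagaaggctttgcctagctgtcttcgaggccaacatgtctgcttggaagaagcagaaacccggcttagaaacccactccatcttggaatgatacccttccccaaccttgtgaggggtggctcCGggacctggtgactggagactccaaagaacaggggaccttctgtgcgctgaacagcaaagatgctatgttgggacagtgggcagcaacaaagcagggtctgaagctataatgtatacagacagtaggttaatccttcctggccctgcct

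Thy1, chr9:44034891-44035190: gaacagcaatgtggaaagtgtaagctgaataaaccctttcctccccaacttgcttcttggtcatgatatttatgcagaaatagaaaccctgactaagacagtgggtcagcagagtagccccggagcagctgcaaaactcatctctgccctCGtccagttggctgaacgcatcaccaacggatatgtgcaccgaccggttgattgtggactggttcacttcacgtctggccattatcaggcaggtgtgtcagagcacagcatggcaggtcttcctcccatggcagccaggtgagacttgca

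Creg1, chr1:165781446-165781745: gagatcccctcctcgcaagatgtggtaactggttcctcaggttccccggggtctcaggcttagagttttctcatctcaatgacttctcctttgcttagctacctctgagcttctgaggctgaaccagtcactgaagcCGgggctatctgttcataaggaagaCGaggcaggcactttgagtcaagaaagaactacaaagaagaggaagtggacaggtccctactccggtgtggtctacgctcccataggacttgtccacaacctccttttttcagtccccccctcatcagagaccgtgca

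The Plxdc1 stretch is intronic, the Il2rb and Thy1 stretches lie upstream of the gene and the Creg1 stretch downstream of it. The Thy1 stretch overlaps the long noncoding RNA gene Gm39323 and the Creg1 stretch the noncoding transcript Gm16565. The palindromic STAT5 motif TTCNNNGAA was in 0 of the 4 stretches, while 2726 of 32851 RefSeq promoters of the same length (8.30%) hold it. This says only that those letters are not in these windows.

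Falling regions made up 2.40% and rising regions 1.65% of all 15670 regions (376 and 258 regions). In an exact permutation test over the 90 ways to assign the genotypes to the 6 libraries, in pairs, 3 assignments gave at least 376 falling regions (one-sided p = 0.0333) and 13 gave at least 258 rising ones (one-sided p = 0.144). The median count in one direction over all assignments was 159.5, with a range from 78 to 441. Both directions together, 634 regions, were reached by 2 assignments, the actual one and its mirror image, which is the smallest p this design allows (exact permutation test, p = 0.0222). The median over assignments was 338 and the lowest count 206. The next highest counts, 614 and 613, came from assignments that kept the hSTAT5BN642H pair at one end and mixed WT with hSTAT5B libraries. The count of both directions thus says little about whether hSTAT5B lay between the other genotypes. Without WT replicate 1, the library that stood apart at Cd8a, 1181 regions fell and 558 rose in the other 5 libraries, where an order is easier to meet (exact permutation test over 30 assignments, one-sided p = 0.0333, the smallest possible, and 0.267). Leaving out any one of the other libraries left the falling count short of the threshold, with one-sided exact p-values from 0.0667 (either hSTAT5B replicate) to 0.233 (hSTAT5BN642H replicate 1). Counted by distinct loci, 330 loci held the falling and 214 the rising regions. When overlapping regions were merged before the test, 215 of 7514 loci fell and 107 rose, and the count of both directions no longer passed the threshold (exact permutation test, p = 0.0667), while the falling count did (2.86% of loci, one-sided p = 0.0333).

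**Figure D1:**
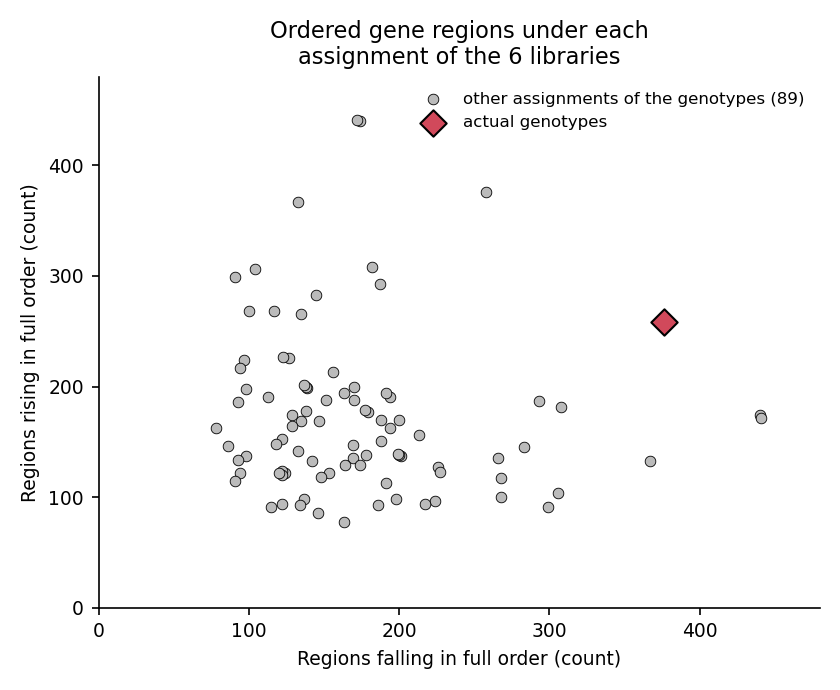
Number of gene regions falling (x axis) and rising (y axis) in full order under each of the 90 assignments of the 3 genotypes to the 6 libraries. The diamond is the actual assignment, with 376 falling and 258 rising regions. The points near 440 on one axis are assignments that keep the hSTAT5BN642H pair at one end and mix WT with hSTAT5B libraries.

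Among the 6 orders of the genotypes, the pair with hSTAT5BN642H lowest were the most frequent. With hSTAT5BN642H lowest, 376 regions had WT highest and hSTAT5B between, but 367 had hSTAT5B highest and WT between. Assignments that paired WT replicate 2 with an hSTAT5B library at the top gave 440 and 441 regions, and those that paired WT replicate 1 with an hSTAT5B library at the top gave 308 and 293. With hSTAT5BN642H lowest, the falling order was thus exceeded by 2 of the other placements and exceeded 3 of them. In the rising direction the graded order was the most frequent of those with hSTAT5BN642H highest: 258 regions had hSTAT5B between, against 133 with WT between and 172 to 187 for the 4 mixed pairings. Orders with hSTAT5BN642H in the middle were held by 199 regions (hSTAT5B highest) and 139 regions (WT highest). Ranked by genotype means alone, without regard to overlap, hSTAT5B lay between the others in 3374 falling regions (21.5%) and 2431 rising ones (15.5%), and 3564 regions (22.7%) ran from hSTAT5B over WT down to hSTAT5BN642H.

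**Figure D2:**
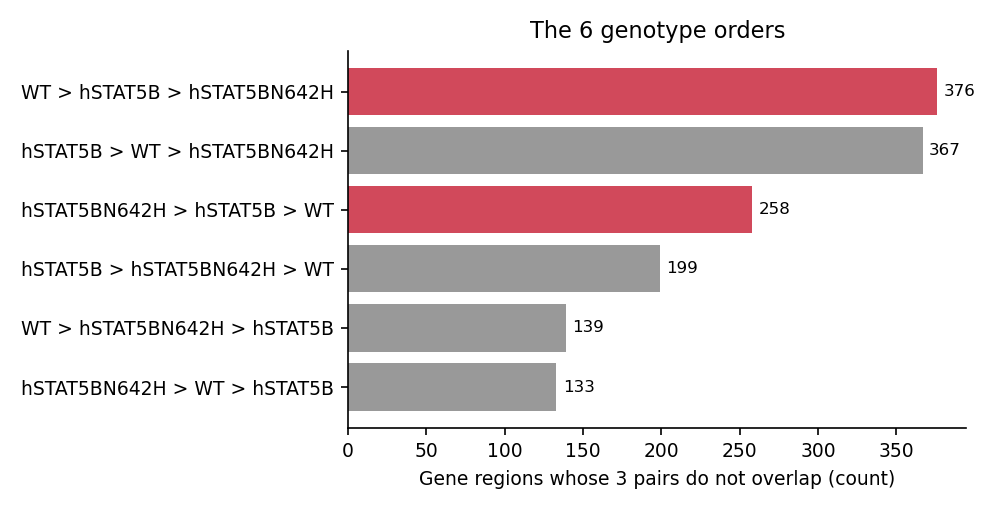
Number of gene regions whose 3 pairs of libraries do not overlap, for each of the 6 orders of the genotypes from highest to lowest. The red bars are the 2 graded orders, 376 falling and 258 rising; the order from hSTAT5B over WT to hSTAT5BN642H held 367 regions.

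With all 6 libraries, the mean level over all regions was not in full order. Its mean was 50.0% and 50.3% in the WT libraries, 50.3% and 50.3% in hSTAT5B, and 49.9% and 50.0% in hSTAT5BN642H. The difference of hSTAT5BN642H from WT was -0.207 percentage points, while hSTAT5B was 0.147 points above WT. Of the 12 pairs of libraries between genotypes, 9 were in falling order (exact permutation test of this number of pairs, two-sided p = 0.333). The median step of a region was 0.11 points from WT to hSTAT5B and -0.30 points from hSTAT5B to hSTAT5BN642H. Without WT replicate 1 the first of these became -0.03 points. The mean level was then graded: 8 of 8 pairs between genotypes were in falling order. The difference of hSTAT5BN642H from the 1 WT library left was -0.379 points. Leaving out any one of the other libraries gave 5 or 6 of 8 pairs in falling order.

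With limma on the log2 ratio of methylated to unmethylated reads, 0% of 15670 regions were called at an adjusted p under 0.05 in each of the 4 contrasts (hSTAT5BN642H against WT, hSTAT5B against WT, hSTAT5BN642H against hSTAT5B, and hSTAT5B against the midpoint of the other two). At an unadjusted p under 0.05 the counts were 1424, 885, 1486 and 1118, and the smallest adjusted p-values were 0.0909, 0.443, 0.141 and 0.322. A quasi-binomial model of the same reads called 2 (0.0128%), 1 (0.00638%), 1 (0.00638%) and 0 regions in these contrasts. They were Vav1 and 5730596B20Rik, named after their values were seen. The mean level of Vav1 was lowest in WT (41.6% and 40.6% in WT, 46.6% and 46.1% in hSTAT5B and 45.0% and 46.4% in hSTAT5BN642H), while the model of its reads put it lower in both transgenic genotypes. The transgenes carry the Vav1 promoter, and its part in this result was not tested. When limma was run on the mean level instead, on the same scale as the order, 7 regions (0.0447%) differed between hSTAT5BN642H and WT. They were Ttyh3, Il2rb, Rras2, Plxdc1, Cd5 and 5730596B20Rik, which were lower, and Cdo1, which was higher. No region was called for hSTAT5B against WT or against the midpoint on that scale, where the smallest adjusted p from limma was 0.564 and 0.514. A p that misses the threshold does not show that hSTAT5B lay at the midpoint. With at least 20 reads per CpG, limma on the read ratio called 2 of 10269 regions off the midpoint (0.0195%), Hsdl1 with 1.57% and 1.52% in WT, 0.220% and 0.214% in hSTAT5B and 1.75% and 1.25% in hSTAT5BN642H (adjusted p = 0.0112), and Fam160a1 with hSTAT5B the highest (adjusted p = 0.0451). That setting also called 1 region (0.00974%) for hSTAT5B against WT and 3 (0.0292%) for hSTAT5BN642H against hSTAT5B. A mean-variance trend in limma called 3 regions (0.0191%) between hSTAT5BN642H and WT, and at least 20 CpGs per region gave 2 (0.0168%) there and 1 (0.00842%) between hSTAT5BN642H and hSTAT5B. Of the 7 regions called on the mean level, all but 5730596B20Rik were in full order. The uncharacterised gene 5730596B20Rik, with levels of 78.3% and 79.5% in WT, 77.2% and 81.2% in hSTAT5B and 55.5% and 58.1% in hSTAT5BN642H, had hSTAT5B at the WT level.

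The order of a region leaned on how CpGs were weighted. When a region's level was taken as all methylated over all reads, 57 of the 376 falling regions (15.2%) and 33 of the 258 rising ones (12.8%) kept their order. The counts were then 323 falling and 207 rising regions, which did not pass (exact permutation test, one-sided p = 0.111 and 0.256). With every CpG thinned to 10 reads, 85 (22.6%) and 63 (24.4%) kept it, and with at least 20 reads per CpG 69 of 254 falling and 47 of 175 rising regions still measured did. Of the 30 ordered regions named in the text by rule, 5 kept their order under each of 7 other ways of counting in which they could be measured (Ttyh3, D16Ertd472e, Gnb2, Il2rb and Bank1). Il2rb could be measured in 4 of the 7, the others in all 7. Minimums of 5 or 20 CpGs cannot change the order of a region that is still measured. Leaving out CpGs of 1000 or more reads ended no order either. Read weights ended the order of 16 of the 30, among them Zfp683, Rras2, Creg1, Trim80, Plcd3, Cd2, Thy1 and Zap70, and thinning that of 15, among them Gpihbp1, Gstt2, Cd2, Thy1 and Zap70. At least 20 reads per CpG ended it in 8, among them Plxdc1 and Rras2, and the gene body alone in 6, among them Efnb3 and Zap70. Some of the 30, such as Cd5, Thy1 and Il2rb, could not be measured in either of these settings. These counts of 8 and 6 are thus out of fewer than 30 regions. The difference between hSTAT5BN642H and WT shrank by over 1.5 times with read weights in Cd5 (-2.12 points), Thy1 (-4.26), Trim80 (3.73) and Efnb3 (5.10), and with at least 20 reads in Plxdc1 (-5.35), Gnb2 (4.67), Efnb3 (3.25) and Tet3 (-0.95). It also shrank in Castor1 over the gene body alone (-2.09) and after thinning in Efnb3 (4.51) and E2f2 (-1.84). It grew by over 1.5 times in the gene body alone in Plxdc1 (-12.87), Rras2 (-18.01) and Ttyh3 (-22.08), with at least 20 reads in Ttyh3 (-21.39), Zap70 (8.04) and Itgam (-4.63), with read weights in Creg1 (19.50), Ost4 (10.80), Zap70 (4.85) and Tet3 (-2.69), and after thinning in Pga5 (-8.50) and Gstt2 (12.5). The gaps behind most calls were narrow: the median smaller gap between neighbouring genotypes was 0.257 points in falling and 0.260 points in rising regions. Just inside the limit were Gnb5 (falling, smaller gap 0.000432 points) and Nsun7 (rising, 0.000396 points), and just outside Rtn4rl1 (-0.000668 points) and Slc35f6 (-0.000943 points). With gaps of at least 1 percentage point, 30 regions fell and 27 rose (exact permutation test, p = 0.0222 and 0.0444, one-sided).

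Falling regions were more methylated and had fewer of their CpGs near the gene start. The median level over the 6 libraries was 62.5% in falling regions, 41.7% in rising regions and 48.3% in all. The median share of a region's CpGs within 1 kb of the start was 9.76%, 24.6% and 23.4%. The share of falling regions went from 0.939% of the regions at levels of 0 to 20% up to 3.84% of those at 80 to 100%, and the share of rising regions from 2.22% down to 0.610%. Single CpGs had the same skew at the top, where 3838 of 446189 CpGs with a level of 80 to 100% fell in full order (0.860%) and 1552 rose (0.348%). Over all CpGs, 5603 fell (0.772%) and 3657 rose (0.504%). The median difference between hSTAT5BN642H and WT was -2.64 points in falling regions, 2.77 points in rising and -0.20 points in all regions. It reached 5 points in 60 falling (15.96%) and 47 rising regions (18.22%), against 377 of all 15670 regions (2.41%). Because ordered regions were chosen on these same levels, larger differences in them are in part set by the rule. The second step, from hSTAT5B to hSTAT5BN642H, was the larger in 228 of 376 falling, 137 of 258 rising and 8607 of all 15670 regions.

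**Figure D3:**
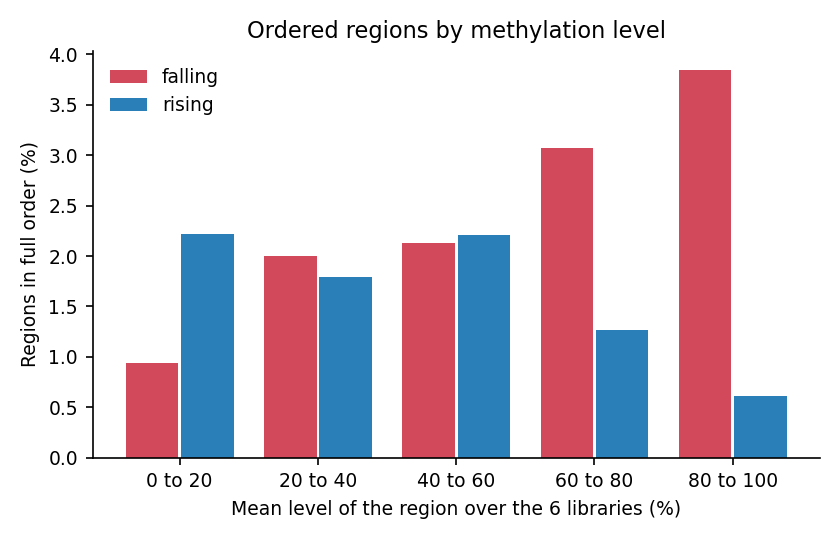
Percentage of gene regions falling (red) or rising (blue) in full order, by the region's mean methylation level over the 6 libraries in classes of 20 points. The falling share goes from 0.939% to 3.84% with the level, and the rising share is 0.610% in the highest class.

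The falling regions with the widest gaps included genes of lymphocytes and of signalling. Cd5 (chromosome 19, 10717116 to 10739002, minus strand) encodes a surface receptor that dampens T cell receptor signals. Its 13 CpGs averaged 79.02% and 78.1% in WT, 74.3% and 74.7% in hSTAT5B and 70.4% and 69.6% in hSTAT5BN642H, and the smaller gap, 3.38 points, was the widest among falling regions. None of its CpGs was in full order by itself, and its order was lost with read weights and after thinning. Zfp683 (chromosome 4, 134053838 to 134058996, plus strand) encodes Hobit, a transcription factor of tissue-resident and innate-like T cells. Its 22 CpGs averaged 74.8% and 72.9% in WT, 67.9% and 66.2% in hSTAT5B and 63.3% and 63.2% in hSTAT5BN642H. Here too 0 single CpGs were in full order, and the fall lay mostly in the gene itself, where 8 CpGs averaged 60.5%, 49.4% and 40.9% in the 3 genotypes. Limma's adjusted p on the read ratio was 0.887 for Cd5 and 0.449 for Zfp683 between hSTAT5BN642H and WT.

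Plxdc1 (chromosome 11, 97923238 to 97986444, minus strand), a transmembrane protein known from tumour vessels, had 47 CpGs with means of 56.2% and 56.4% in WT, 53.6% and 53.1% in hSTAT5B and 47.9% and 48.6% in hSTAT5BN642H. The difference was in the gene body beyond the first kilobase (65.98%, 60.2% and 50.5% over 23 CpGs), while the CpGs upstream and at the start stayed below 20% in each library. Both measured CpGs of the Plxdc1 stretch fell in full order. The CpG at 32030 bases from the start read 93.8% and 90.2% in WT, 72.7% and 78.5% in hSTAT5B and 52.7% and 60.6% in hSTAT5BN642H, over 61 to 110 reads. The 95% Wilson interval was 85.2 to 97.6% in WT replicate 1 and 43.5 to 61.8% in hSTAT5BN642H replicate 1; such intervals cover counting error only. The second CpG, at 31764 bases, went from 56.5% and 42.3% over 16.7% and 30.8% to 5.56% and 0%, the last of 20 reads, which allows up to 16.1% by the same interval.

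Ttyh3 (chromosome 5, 140620578 to 140649031, minus strand), of the tweety family of membrane channels, fell furthest among the 10 falling regions. Its 44 CpGs averaged 56.0% and 54.1% in WT, 49.8% and 52.2% in hSTAT5B and 40.8% and 41.1% in hSTAT5BN642H, a difference of -14.07 points (limma on the mean level, SE 1.11, adjusted p = 0.0495; 0.471 on the read ratio). Of the 44 CpGs, 8 were in full order, all between 25638 and 35847 bases from the start. At 26113 bases the level was 96.6% and 78.4% in WT, 60% and 68.3% in hSTAT5B and 16.7% and 29.3% in hSTAT5BN642H. The 11 CpGs within 1 kb of the start had means of 2.04%, 2.70% and 4.13% in the 3 genotypes. Rras2 (chromosome 7, 114046782 to 114117781, minus strand), a small GTPase of the RAS family, averaged 66.9% and 66.6%, then 63.1% and 64.3%, then 56.5% and 57.7% over 30 CpGs. Its fall came from the gene beyond the first kilobase, with 75.1%, 69.7% and 54.3% over 14 CpGs. The CpG at 3190 bases read 89.8% and 87.5% in WT, 79.6% and 97.7% in hSTAT5B and 25.4% and 30.3% in hSTAT5BN642H, which is no graded order.

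**Figure D4:**
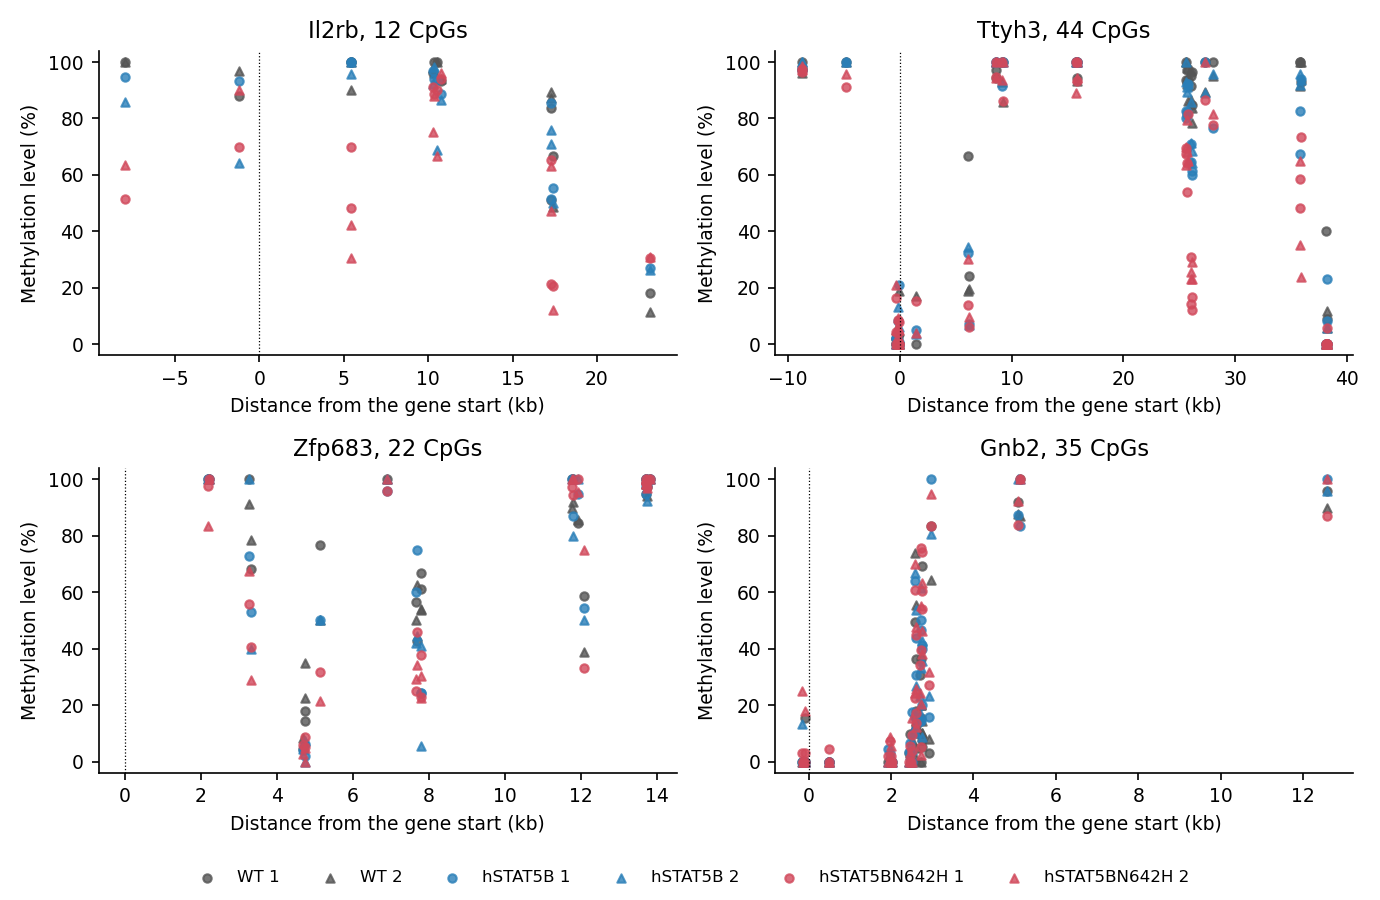
Methylation level (y axis, %) of each used CpG against its distance from the gene start in kb (x axis; the dotted line is the start) in Il2rb, Ttyh3, Zfp683 and Gnb2. Circles are replicate 1 and triangles replicate 2; in Ttyh3 the hSTAT5BN642H libraries separate near 26 kb and 36 kb, while CpGs at the start are near 0 in every library.

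The other 5 falling regions of this group moved by between -5.59 and -10.91 points from WT to hSTAT5BN642H. In Castor1, the cytosolic arginine sensor of mTORC1, the means were 53.1%, 51.0% and 47.4%, and 3 CpGs of the downstream flank carried the fall (69.8%, 61.1% and 26.6%). D16Ertd472e, a gene of unknown function, fell from 65.7% over 62.5% to 59.0%. Apol9a (75.2%, 70.9% and 64.3%) and Apol9b (78.1%, 73.3% and 68.9%) are near-identical apolipoprotein L genes, so reads may have been placed in either copy and their values are uncertain. Pga5, a pepsinogen gene next to Cd5 on chromosome 19, fell from 96.4% over 93.3% to 90.8%.

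Among the rising regions with the widest gaps was Gpihbp1 (chromosome 15, 75596628 to 75599481, plus strand), which carries lipoprotein lipase to the capillary wall. It averaged 38.2% and 37.0% in WT, 42.3% and 41.5% in hSTAT5B and 49.8% and 46.4% in hSTAT5BN642H over 10 CpGs. In Creg1 (chromosome 1, 165763746 to 165775308, plus strand), a secreted lysosomal glycoprotein, the 13 CpGs averaged 41.3% and 40.7%, then 44.4% and 47.4%, then 51.3% and 51.7%. The rise of Creg1 lay in 8 CpGs of the downstream flank (46.5%, 54.3% and 63.1%), while its 3 CpGs at the start stayed at 0 to 1.39% in each library. In the Creg1 stretch the CpG at 17837 bases read 6.98% and 10.7% in WT, 16.8% and 26.9% in hSTAT5B and 45.4% and 53.6% in hSTAT5BN642H, over 86 to 196 reads, and its neighbour at 17862 bases rose likewise. The third measured CpG, at 17746 bases, was in no order (6.67% and 0% in WT, 20% and 13.3% in hSTAT5B, 18.2% and 11.8% in hSTAT5BN642H). Gnb2 (chromosome 5, 137528127 to 137533510, minus strand), a beta subunit of G proteins, averaged 19.8% and 16.7%, then 23.4% and 23.5%, then 26.4% and 26.4% over 35 CpGs. In Gnb2 27 CpGs past the first kilobase carried the change (19.95%, 26.5% and 29.8%), and 3 single CpGs rose in full order.

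Other rises lay within 1 kb of the gene start or in the upstream flank, which runs from 1 to 10 kb before it. In Efnb3, which encodes the ligand ephrin B3, 18 CpGs within 1 kb of the start averaged 10.1%, 22.7% and 25.4%. That part of Efnb3 was not in full order by itself: hSTAT5B read 17.6% and 27.8% and hSTAT5BN642H 24.3% and 26.4%. In Gstt2, a glutathione transferase gene, 7 CpGs within 1 kb of the start averaged 17.8%, 26.9% and 32.4%. In 2200002D01Rik 20 such CpGs averaged 48.1%, 54.0% and 59.1%. In Ost4, a subunit of the oligosaccharyltransferase, 13 CpGs of the upstream flank averaged 19.9%, 25.01% and 31.9%. Its 3 CpGs within 1 kb of the start stayed at 0 to 2.48% in each library. The odorant receptor gene Olfr153 rose in its upstream flank (38.4%, 46.3% and 51.2% over 20 CpGs), where its WT libraries lay far apart at 34.4% and 42.4%. Trim80 went from 78.3% over 82.4% to 88.0%. Plcd3, a phospholipase C, had the most CpGs of these 20 regions, and its 78 CpGs averaged 74.3% and 73.3% in WT, 76.6% and 75.9% in hSTAT5B and 78.6% and 79.1% in hSTAT5BN642H. Of its CpGs, 7 rose in full order.

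**Figure D5:**
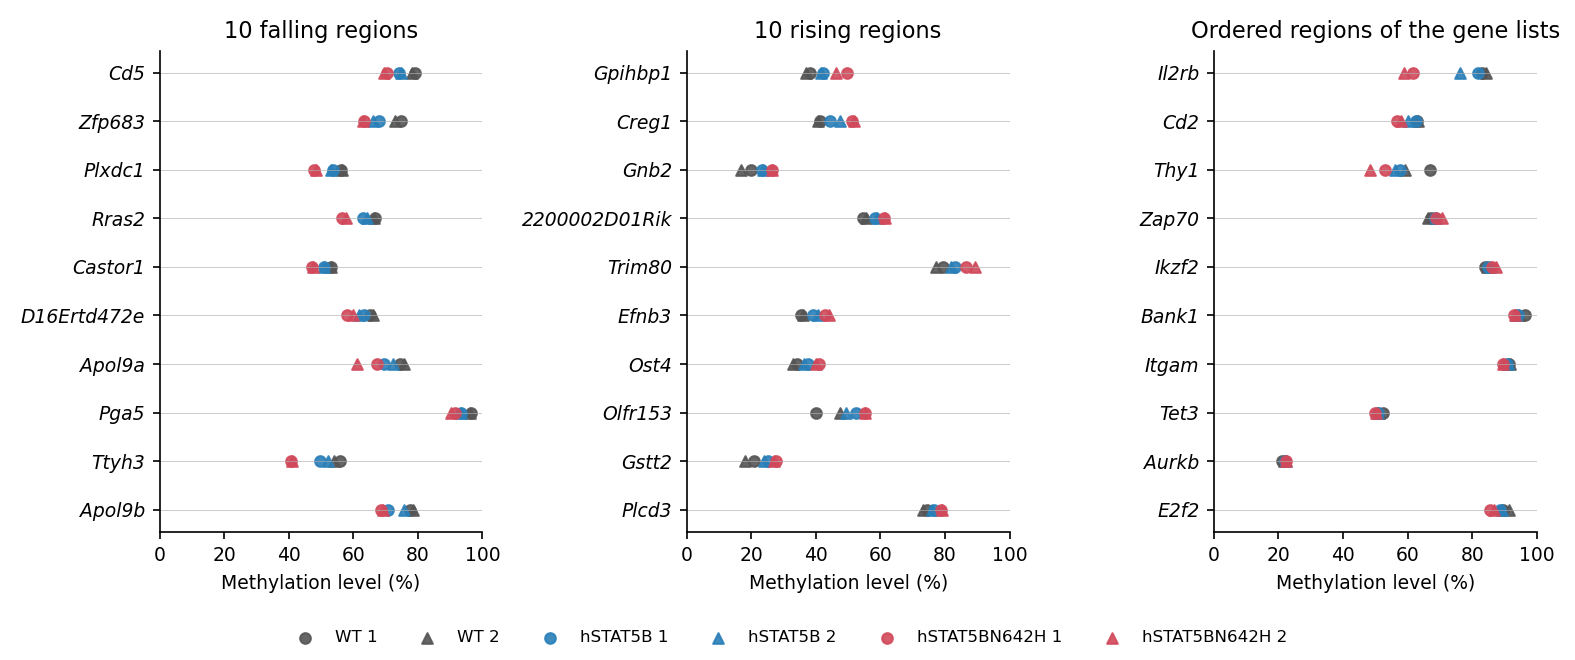
Methylation level (x axis, %) of named gene regions in each library, with WT in grey, hSTAT5B in blue and hSTAT5BN642H in red, and circles for replicate 1 and triangles for replicate 2. The regions were chosen for their order, and Il2rb shows the widest spread, from 84.3% in WT to 58.8% in hSTAT5BN642H.

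Of the receptors that signal through STAT5, Il2rb, the shared beta chain of the interleukin 2 and 15 receptors, was the 1 of 6 measured regions in full order, beside 2.40% falling and 1.65% rising of all regions. Its 12 CpGs (gene at chromosome 15, 78479256 to 78495271, minus strand) averaged 83.1% and 84.3% in WT, 81.7% and 76.2% in hSTAT5B and 61.8% and 58.8% in hSTAT5BN642H. The step to hSTAT5B was -4.74 points and the next one -18.66 points, and the hSTAT5B libraries differed from each other by more than the first step. The difference from WT to hSTAT5BN642H was -23.40 points (limma on the mean level, SE 1.92, adjusted p = 0.0495; on the read ratio 0.0909). The fall ran through the upstream flank (96.2%, 84.5% and 68.7%), the gene (97.3%, 92.9% and 73.4%) and the downstream flank (57.1%, 55.3% and 36.4%). The marked CpG of the Il2rb stretch, at -7952 bases, was fully methylated in both WT libraries (22 and 15 reads), at 94.7% and 85.7% in hSTAT5B, and at 51.5% and 63.6% in hSTAT5BN642H. The Wilson interval of 100% in WT replicate 2 reached down to 79.6%, and that of hSTAT5BN642H replicate 2 up to 80.3%, so these 2 intervals overlapped. The alpha chain gene Il2ra was in no order, with 89.6% and 88.6% in WT, 92.7% and 92.2% in hSTAT5B and 90.7% and 93.0% in hSTAT5BN642H.

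Among 19 measured genes of T cell identity, 3 fell and 1 rose in full order, beside 2.40% and 1.65% of all regions. The median difference of the list between hSTAT5BN642H and WT was -1.28 points, against -0.20 points over all regions, and 13 of 19 (68.4%) were lower in hSTAT5BN642H, against 56.7% of all regions. Thy1, a surface glycoprotein of T cells, averaged 66.8% and 59.3% in WT, 57.6% and 56.1% in hSTAT5B and 52.8% and 48.4% in hSTAT5BN642H, with WT replicate 1 well above its partner. Cd2, an adhesion receptor, averaged 62.9% and 63.2%, then 62.6% and 60.2%, then 56.6% and 58.1%. In the Thy1 stretch the marked CpG at -8343 bases read 100% and 100%, then 94.7% and 90%, then 81.2% and 86.7%. The other 4 measured CpGs of that stretch were in no order and read 78.6% or more in every library. The rising one was Zap70, a kinase of the T cell receptor (67.1% and 66.3%, then 68.5% and 68.7%, then 68.9% and 70.6%). Within Zap70 the 3 CpGs near the start went the other way, from 36.5% over 20.2% to 6.04%.

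Of 24 measured genes of the cell cycle and Aurora list, E2f2 fell (89.6% and 91.3%, then 88.7% and 89.3%, then 85.6% and 86.7%) and Aurkb, Aurora kinase B, rose by 1.06 points (21.1% and 21.7%, then 22.1% and 22.2%, then 22.4% and 22.5%). That is 1 gene in each direction (4.17% each), beside 2.40% falling and 1.65% rising of all regions. The Aurkb difference turned to -0.46 points with at least 20 reads per CpG and to -1.74 points over the gene body alone. The mitotic genes Kntc1 (98.6%, 98.1% and 97.0%) and Top2a (85.5%, 86.4% and 84.0%) were in no full order. Mki67, the proliferation marker, was lower in both hSTAT5BN642H libraries (47.2% and 49.2%, against 53.3 to 57.1% in the other 4), with hSTAT5B on either side of WT. Of 9 enzymes of DNA methylation, 1 was in full order: Tet3, a dioxygenase that oxidises methylcytosine, with a difference of -1.69 points (51.8%, 50.9% and 50.1%).

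Of 16 measured STAT5 targets and 11 JAK and STAT genes, 0 were ordered. Over all regions 2.40% fell and 1.65% rose, and at these shares a list this short would hold less than 1 ordered region, so the counts are no result about the lists. Their median differences between hSTAT5BN642H and WT were -0.14 and 0.23 points, against -0.20 points over all regions. The target Cish, a feedback inhibitor, averaged 24.2%, 24.2% and 24.5%, Bcl2, a survival factor, 19.8%, 20.1% and 17.8%, and Ccnd2, cyclin D2, 23.4%, 23.6% and 22.7%. Pim1, a survival kinase, was lower in hSTAT5BN642H at 5.81%, 5.69% and 4.02%, with its downstream flank at 31.1%, 26.5% and 6.57% over 4 CpGs. Cdkn2a, a tumour suppressor locus, averaged 12.2%, 11.0% and 13.3%.

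The remaining lists held 0 or 1 ordered regions each. At the shares of all regions (2.40% falling and 1.65% rising) lists of 3 to 14 genes would hold less than 1, so a count of 0 or 1 is no result about them. No region was ordered among 11 effector and memory genes, 12 naive genes, 13 Polycomb genes, 13 tumour suppressors, 14 Notch genes and 3 natural killer genes, and Cd8a was not ordered either. The Notch list held Lfng, a glycosyltransferase that modifies Notch, at 39.8% and 36.7% in WT, 34.3% and 39.6% in hSTAT5B and 23.5% and 22.3% in hSTAT5BN642H, a difference of -15.37 points with no intermediate hSTAT5B pair. Ikzf2, which encodes Helios, rose as 1 of 4 CD4 and regulatory T cell genes (84.2%, 85.1% and 86.8%). Bank1, a B cell scaffold protein, fell as 1 of 10 B cell genes (95.3%, 93.9% and 93.1%), and Itgam, the myeloid integrin CD11b, as 1 of 14 myeloid genes (91.6%, 91.0% and 89.5%).

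Neighbouring ordered regions often shared CpGs and count as 1 locus. The largest falling locus was the protocadherin gamma cluster on chromosome 18, whose 17 overlapping genes include Pcdhga1 (59.0% and 60.2%, then 57.3% and 58.7%, then 54.3% and 55.2%). In the class II region of the major histocompatibility complex, the antigen-processing genes Psmb9, Tap1, Psmb8 and Tap2 fell together. Tap1, a subunit of the peptide transporter, averaged 55.4% and 52.9% in WT, 52.1% and 49.0% in hSTAT5B and 46.5% and 47.9% in hSTAT5BN642H. Coro1b, Ptprcap, Rps6kb2 and Carns1 fell together on chromosome 19. The largest rising loci held 4 regions each, among them Agbl5, Ost4, Emilin1 and Khk on chromosome 5.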

How the data were processed

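RRBS libraries of lymph node CD8+ T cells were analysed, 2 for each of 3 genotypes grouped by the labels. Per the study's methods and the labels, the authors trimmed reads with Trimmomatic, aligned them with BSMAP in RRBS mode to GRCm38 (mm10) and called CpGs with custom scripts; versions are not given in the sources used here. The deposited files give, for each CpG, methylated over total read counts (the value used) and a rounded score of the same ratio times 1000 (a check only; they differed by at most 0.5). Reads carry no molecular identifiers, so PCR copies count as reads.

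Genes came from GENCODE M21. A region's level was the unweighted mean over CpGs with 10 or more reads in all 6 libraries, with at least 10 such CpGs. Genotype labels were permuted exactly (90 assignments). Summed reads were tested with limma 3.58.1 in R 4.3.3 on log2((methylated + 1)/(unmethylated + 1)) in one model of all 6 libraries, Benjamini-Hochberg adjusted over all regions with a threshold of 0.05. Code was tested on simulated data first. Python 3.11.15, numpy 2.4.6, pandas 2.3.3 and scipy 1.17.1 were used.

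Named regions were the 10 falling and 10 rising ones with the largest smaller gap (skipping those that share most CpGs with one already taken), ordered regions in gene lists, the lowest limma calls (there were none) and genes the study names. Lfng, Mki67, Vav1, Hsdl1, Fam160a1, Tap1, Pcdhga1, 5730596B20Rik, Cdo1 and the loci were named after their values were seen. Members and lists were chosen with earlier results of these data known. Alternatives covered the read and CpG minimums, the weighting of CpGs, thinning, the gene body alone, merged loci, other models and leaving out each library.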

Additional observations from a re-analysis of the deposited data

How the results depend on the processing

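Falling regions numbered 323 with read-weighted levels and no longer passed the exact permutation test (p = 0.111), nor did the 530 in either direction (p = 0.111). Other counts that moved by over 1.5 times were 211 falling, 166 rising and 377 in either direction after thinning, 215, 107 and 322 in merged loci, 30, 27 and 57 with gaps of at least 1 point, 159 rising of 10269 regions with at least 20 reads per CpG (1.55%) and 165 rising of 11107 in the gene body alone (1.49%), shares close to the 1.65% of all regions. With 1 library left out (5 libraries, 30 assignments) the order is easier to meet, and falling counts ran from 656 to 1181, rising from 493 to 638, and either from 1224 to 1739; the falling count passed the exact permutation test without WT replicate 1 (p = 0.0333). Read weights moved the mean difference between hSTAT5BN642H and WT to -0.839 points and the median steps to 0.372 and -1.14 points. Leaving out 1 library moved that mean difference between -0.379 and -0.0354 points and the steps between -0.0302 (without WT replicate 1) and 0.246, and between -0.343 and -0.246. The Aurkb difference reversed to -0.46 points with at least 20 reads per CpG and to -1.74 points over the gene body alone. The cause of these shifts was not tested.

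Regions called between hSTAT5BN642H and WT numbered 2 with the quasi-binomial model, 7 with limma on the mean level, 3 with a mean-variance trend and 2 with at least 20 CpGs; hSTAT5B against WT gave 1 with the quasi-binomial model and 1 with at least 20 reads, hSTAT5BN642H against hSTAT5B gave 1, 3 (at least 20 reads) and 1 (at least 20 CpGs), and the midpoint contrast 2 (at least 20 reads). With the replicate number as a block, limma called 0 regions in each contrast. Deviations of same-numbered libraries correlated at -0.02, -0.08 and 0.05. They thus shared no strong deviation, which does not tell whether the numbers pair the samples. Leaving out any library left 0 calls in each contrast. With 2 libraries a genotype, the smallest p an order can reach is 0.0222 in either direction and 0.0111 in one.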
